A study of Mus musculus with 8 samples.

Results

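Notch signaling passes between touching cells. A ligand of the Delta or Jagged family on one cell binds a Notch receptor on its neighbor, ADAM proteases and gamma-secretase cut the receptor, and its inner part joins Rbpj and a Mastermind protein in the nucleus to switch on genes such as those of the Hes and Hey repressors. In embryonic stem cells (ESCs) the pathway is best known for its part in the choice to differentiate.

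The 10 genes described here are the receptors Notch1 to Notch4, the ligands Dll1, Dll3, Jag1 and Jag2, and the target genes Hes1 and Hey1, taken by symbol from 20278 genes listed in the files. All 10 were listed in every sample and passed the filter on low counts. N33 is an ESC line from mice given as C57BL/6 in the labels and as C57BL/6J in the study's methods, and its poly-A RNA was sequenced in 4 culture conditions with 2 replicates each. In −F, cells grew on gelatin in 20% serum. In F, they grew in the same serum on feeders, which are mouse embryonic fibroblasts arrested with mitomycin C, and F2i added 2i, a pair of inhibitors of Mek (PD0325901) and of Gsk3 (CHIR99021), to feeders and serum. In NB2i, cells grew in N2B27 medium with CHIR99021 at 3 µM and PD0325901 at 1 µM on poly-L-ornithine and laminin, with neither serum nor feeders. All groups received LIF at 1000 U/ml. The labels state that ESCs were freed from feeders by differing adherence before RNA was taken. A single line was used, so the values describe N33. The inhibitor concentrations in F2i are not given in the sources used here.

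Expected counts, RSEM's estimates of reads per gene, summed to between 20129641 and 20664488 per sample. FPKM is that estimate per length and per depth. The 10 ESC markers, such as Pou5f1 and Nanog, summed to between 4218 and 4856 FPKM in every sample. Single markers differed more than this sum. Utf1 had a mean of 478 FPKM in −F and 47.1 in NB2i. Klf4 had 54.5 in −F and 245 in F2i, and Nanog 204 in −F and 473 in F2i. The 16 fibroblast markers summed to 69.3 and 68.0 FPKM in −F, 354 and 361 in F, 743 and 730 in F2i, and 21.3 and 19.8 in NB2i. Between 1 and 2 of these markers were at 0 in the −F samples, 0 in F and F2i, and 3 to 4 in NB2i, and Lum was at 0 in all −F and NB2i samples. These sums thus differed between the groups together with the conditions, and the part of fibroblast RNA in the levels below was not tested. Neither −F nor NB2i had feeders. In −F, Tagln (mean 29.7 FPKM) and Fstl1 (25.1) made most of the sum. In NB2i, Fstl1 (17.0) made most of it, and Tagln had 0.255. From F to F2i, Col1a1 (mean 67.8 to 244 FPKM) and Col1a2 (46.1 to 124) gained the most FPKM, so the sums rest largely on a few genes. In these bulk samples, fewer cells of a type and less RNA per cell cannot be told apart.

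Windows of 250 bases before the start site were given by RefSeq (GRCm38.p6) for 8 of the 10 genes, Hes1 and Hey1 being the others. A total of 3 motifs was searched on both strands. The RBPJ core TGGGAA, present in 21.6% of 32851 windows, was in 0 of the 8, and so was the TCF/LEF core CTTTGA, present in 13.8%. The N-box CACNAG, a site of Hes repressors, was added after that search had found no match, and it was in 3 of the 8 windows (Notch1, Notch2 and Notch3) against 36.7% of all windows, a share near the background. Of the 2 windows of Dll1, neither held a motif. Bases just after the inner of its 2 starts were found in a GENCODE transcript of Dll1. Those after the outer start, whose window is printed below, were not. The windows of Hes5 and Rbpj, pathway genes outside the 10, hold the RBPJ core. Below are stretches that lie outside the RefSeq span of the gene and outside GENCODE exons of protein-coding genes. Dll1 and Jag1 are the ligands that rose on feeders, and Notch3 is the receptor that fell most from −F to both 2i media. Capitals mark an N-box in Notch3, on either strand. The stretches are chr17:15376933-15377182 (minus strand, before the outer of 2 starts) for Dll1, chr2:137116645-137116770 (minus) for Jag1 and chr17:32166897-32167140 (minus) for Notch3.
Dll1: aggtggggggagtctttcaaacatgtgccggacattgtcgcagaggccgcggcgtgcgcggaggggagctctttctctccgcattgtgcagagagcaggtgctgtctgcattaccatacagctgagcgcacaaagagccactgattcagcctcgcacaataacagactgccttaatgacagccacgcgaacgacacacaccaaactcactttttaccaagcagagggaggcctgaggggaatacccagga
Jag1: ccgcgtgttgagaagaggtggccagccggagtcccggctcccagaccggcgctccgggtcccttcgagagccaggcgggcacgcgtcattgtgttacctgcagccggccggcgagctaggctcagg
Notch3: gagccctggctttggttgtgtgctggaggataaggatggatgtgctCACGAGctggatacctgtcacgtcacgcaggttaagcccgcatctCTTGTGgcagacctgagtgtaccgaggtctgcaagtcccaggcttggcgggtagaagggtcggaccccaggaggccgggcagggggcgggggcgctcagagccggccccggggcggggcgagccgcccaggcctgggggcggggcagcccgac

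The first question is how the ligands differed between cultures with and without feeders in serum. Dll1 and Jag1 were higher on feeders, and Jag2 and Dll3 were lower. Dll1 (chr17:15367354-15376932, minus strand), a ligand of the Delta family, had 1.38 and 1.21 FPKM in −F and 9.25 and 8.93 in F. Both F samples lay far above both −F samples, and the log2 fold change was 2.83 ± 0.099 (SE, adjusted p = 1.2e-15, from edgeR's quasi-likelihood test and adjusted by Benjamini-Hochberg, as for every adjusted p here). Jag1 (chr2:137081451-137116520, minus strand), a Jagged ligand, had 2.45 and 2.54 FPKM in −F and 7.66 and 7.44 in F, and rose by 1.62 ± 0.076 on the log2 scale (adjusted p = 2.2e-13). Jag2 (chr12:112907803-112929812, minus strand) had 14.6 and 15.8 FPKM in −F and 10.4 in each F sample, and fell by 0.52 on the log2 scale (SE 0.062, adjusted p = 7.3e-07). Dll3 (chr7:28293555-28301785, minus strand), a Delta family member known to act on Notch within the same cell, had 5.40 and 5.09 FPKM in −F and 2.90 and 2.99 in F. It fell by 0.81 on the log2 scale (SE 0.13, adjusted p = 4.2e-05), and did not pass with limma on log2(FPKM + 0.1) (adjusted p = 0.058). The sum of the 4 ligands was 23.8 and 24.7 FPKM in −F and 30.2 and 29.8 in F.

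The targets were both higher on feeders. Hes1 (chr16:30065357-30067796, plus strand), a repressor and a main target of Notch in many tissues, had 12.5 and 12.1 FPKM in −F and 32.3 and 31.5 in F. The groups did not overlap, and the log2 fold change was 1.40 ± 0.067 (adjusted p = 3.4e-13). Hey1 (chr3:8663359-8667038, minus strand), a related repressor, had 2.63 and 1.92 FPKM in −F and 3.21 and 3.42 in F, with a log2 fold change of 0.57 ± 0.15 (adjusted p = 0.0048). Hey1 did not pass without −F replicate 2 (0.36, adjusted p = 0.093), with DESeq2 (0.55, adjusted p = 0.099) or with limma on log2(FPKM + 0.1) (0.54, adjusted p = 0.069).

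Of the receptors, 3 were higher on feeders and Notch3 was lower. Notch4 (chr17:34564286-34588543, plus strand) had 1.92 and 1.94 FPKM in −F and 3.74 and 3.85 in F, a log2 fold change of 1.00 ± 0.080 (adjusted p = 1.8e-09) that lay just under 2-fold before rounding and just over it without −F replicate 2 (1.01) or F replicate 1 (1.02). Notch1 (chr2:26457902-26503822, minus strand) had 8.26 and 8.40 FPKM in −F and 9.67 in each F sample, and rose by 0.24 ± 0.047 (adjusted p = 0.00034). Notch2 (chr3:98013538-98150367, plus strand) had 5.36 and 5.21 FPKM in −F and 6.03 and 6.23 in F, and rose by 0.24 ± 0.052 (adjusted p = 0.00093). Notch3 (chr17:32120820-32166896, minus strand), the receptor with the highest FPKM in −F and F, had 21.9 and 23.5 FPKM in −F and 16.5 and 18.0 in F. It fell by 0.38 on the log2 scale (SE 0.048, adjusted p = 2e-06).

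Counted with an adjusted p under 0.05 and at least a 2-fold change, 3 of the 10 genes were higher in F than in −F (Dll1, Jag1 and Hes1) and 0 were lower, against 5.59% and 1.65% of 15287 genes tested. At any fold, 7 passed upward and 3 downward, where 21.7% and 18.5% of all genes did. The median log2 fold change of the 10 was 0.40, and that of all genes was within 0.0178 of 0 in each of the comparisons made.

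**Figure D1:**
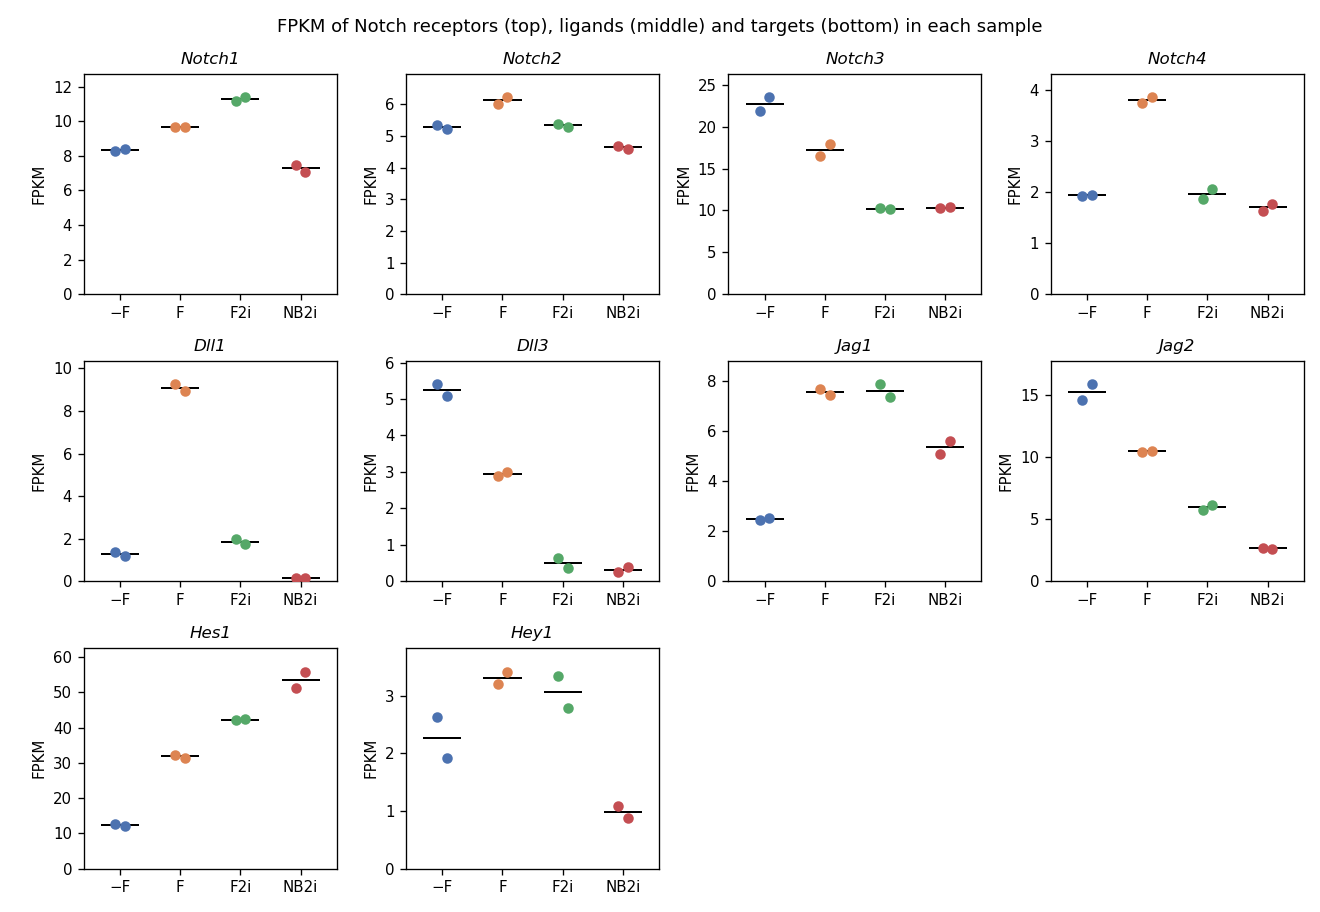
Each panel plots the FPKM (vertical axis, from 0) of one gene in the 2 samples of each condition (points), with the mean as a line. Dll1 stands highest in F at 9.25 and 8.93 FPKM, Jag2 and Dll3 step down from −F to NB2i, and Hes1 steps up from 12.5 and 12.1 FPKM in −F to 51.3 and 55.9 in NB2i.

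Adding 2i to feeders and serum lowered both Delta ligands. Dll1 had 1.99 and 1.74 FPKM in F2i, below both F samples, and fell by 2.24 on the log2 scale (SE 0.093, adjusted p = 1e-14). Dll3 had 0.64 and 0.36 FPKM in F2i and fell by 2.51 (SE 0.21, adjusted p = 1.2e-09). These were the 2 genes of the 10 that were at least 2-fold lower, against 7.00% of all genes, and 0 were at least 2-fold higher, against 6.44%. At any fold, 2 passed upward and 6 downward, against 27.3% and 27.4%. The fibroblast markers went the other way between F and F2i, with 12 of 16 passing upward and 0 downward. Dcn, Lum, Twist1 and Twist2 did not pass.

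Jag1 stood at 7.86 and 7.36 FPKM in F2i, overlapping F, and its difference did not pass (log2 0.049 ± 0.065, adjusted p = 0.55). Jag2 had 5.77 and 6.14 FPKM in F2i and fell by 0.77 (SE 0.069, adjusted p = 4e-09). Hes1 had 42.2 and 42.4 FPKM in F2i and rose by 0.44 ± 0.057 (adjusted p = 8.2e-07). Hey1, at 3.34 and 2.79 FPKM, overlapped F and did not pass (adjusted p = 0.68). Among receptors, Notch1 rose to 11.2 and 11.4 FPKM (log2 0.26 ± 0.046, adjusted p = 4.3e-05), whereas Notch3 had 10.3 and 10.1 FPKM and fell by 0.71 (SE 0.052, adjusted p = 1.2e-10). Notch4 returned to 1.86 and 2.05 FPKM, a fall by 0.92 (SE 0.080, adjusted p = 2.6e-09). Notch2, at 5.39 and 5.30 FPKM, fell by 0.16 (SE 0.052, adjusted p = 0.013), and did not pass without F replicate 2 (adjusted p = 0.12), without F2i replicate 2 (adjusted p = 0.071) or with DESeq2 (adjusted p = 0.12).

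Between F2i and NB2i, which differ in feeders, serum, medium and coating together, Dll1, Jag2 and Hey1 were at least 2-fold lower in NB2i. These are 3 of the 10 genes, against 13.3% of all genes, and 0 were at least 2-fold higher, against 6.01%. At any fold, 1 passed upward and 6 downward, against 33.3% and 30.8%. Dll1 had 0.15 and 0.14 FPKM in NB2i, from 11 and 10 counts, and fell by 3.64 (SE 0.21, adjusted p = 2.1e-12). Jag2 had 2.71 and 2.62 FPKM and fell by 1.15 (SE 0.085, adjusted p = 1.2e-10). Hey1 had 1.09 and 0.88 FPKM and fell by 1.63 (SE 0.18, adjusted p = 9.5e-08). All 16 fibroblast markers were also at least 2-fold lower in NB2i.

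Hes1 rose again in NB2i, to 51.3 and 55.9 FPKM (log2 0.35 ± 0.054, adjusted p = 8e-06), its highest level of all conditions. Jag1 had 5.07 and 5.62 FPKM and fell by 0.50 (SE 0.068, adjusted p = 1.4e-06), while staying above both −F samples. Dll3, with 0.25 and 0.38 FPKM from fewer than 30 counts in each F2i and NB2i sample, did not pass (log2 -0.67 ± 0.34, adjusted p = 0.09), and its value ran from -0.21 without F2i replicate 1 (adjusted p = 0.71) to -1.02 without F2i replicate 2 (adjusted p = 0.019). Of the receptors, Notch1 fell by 0.63 (SE 0.047, adjusted p = 1.5e-10) to 7.48 and 7.08 FPKM, and Notch2 fell by 0.19 (SE 0.053, adjusted p = 0.0032) to 4.70 and 4.60. Notch3 was at 10.2 and 10.4 FPKM (adjusted p = 0.73) and Notch4 at 1.63 and 1.76 (adjusted p = 0.063), and neither passed. Notch4 lay near the threshold. It passed with DESeq2's size factors in edgeR (adjusted p = 0.044), only the groups compared (0.049) or limma on log2(FPKM + 0.1) (0.044).

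The feeder-free conditions, NB2i and −F, differ in serum, medium, coating and 2i. Hes1 (log2 2.19 ± 0.064, adjusted p = 4.9e-18) and Jag1 (1.17 ± 0.080, adjusted p = 1.6e-11) were at least 2-fold higher in NB2i, 2 of 10 against 11.1% of all genes. Dll1, Dll3, Jag2, Hey1 and Notch3 were at least 2-fold lower, 5 of 10 against 16.1%. At any fold, 2 passed upward and 6 downward, against 36.9% and 35.4%. Notch1, one of the 6 (log2 -0.13 ± 0.048, adjusted p = 0.022), did not pass with DESeq2 (adjusted p = 0.057). Its value was -0.076 without NB2i replicate 2. Hey1 (log2 -1.14 ± 0.19, adjusted p = 1.9e-05) was less than 2-fold lower without −F replicate 1 (-0.90) or NB2i replicate 2 (-0.98). Dll3 fell by 3.98 (SE 0.21, adjusted p = 1.3e-13), and Jag2 fell by 2.44 (SE 0.075, adjusted p = 1.5e-17). Notch3 fell by 1.07 (SE 0.051, adjusted p = 2.8e-14). Here the fibroblast markers were low in both groups, at 69.3 and 68.0 against 21.3 and 19.8 FPKM, and 12 of 16 passed downward.

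The other pairs share samples with those above. In F2i against −F, Hes1 and Jag1 were at least 2-fold higher, 2 of 10 against 11.7% of all genes, and Dll3, Jag2 and Notch3 were lower, 3 of 10 against 9.82%. At any fold, 5 passed upward and 3 downward, against 34.5% and 33.3%. Hey1, one of the 5 (log2 0.49 ± 0.15, adjusted p = 0.0078), did not pass without −F replicate 2 (0.28, adjusted p = 0.14), without F2i replicate 1 (0.36, adjusted p = 0.11), with DESeq2 (adjusted p = 0.10) or with limma on log2(FPKM + 0.1) (adjusted p = 0.083). In NB2i against F, 5 of 10 changed at least 2-fold, against 27.6% of all genes in either direction, and these 5 (Dll1, Dll3, Jag2, Hey1 and Notch4) were all lower, against 17.6%. At any fold, 1 passed upward and 9 downward, against 36.3% and 37.1%. Dll1 differed most there, by a log2 fold change of -5.89 ± 0.15 (adjusted p = 8.6e-19).

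**Figure D2:**
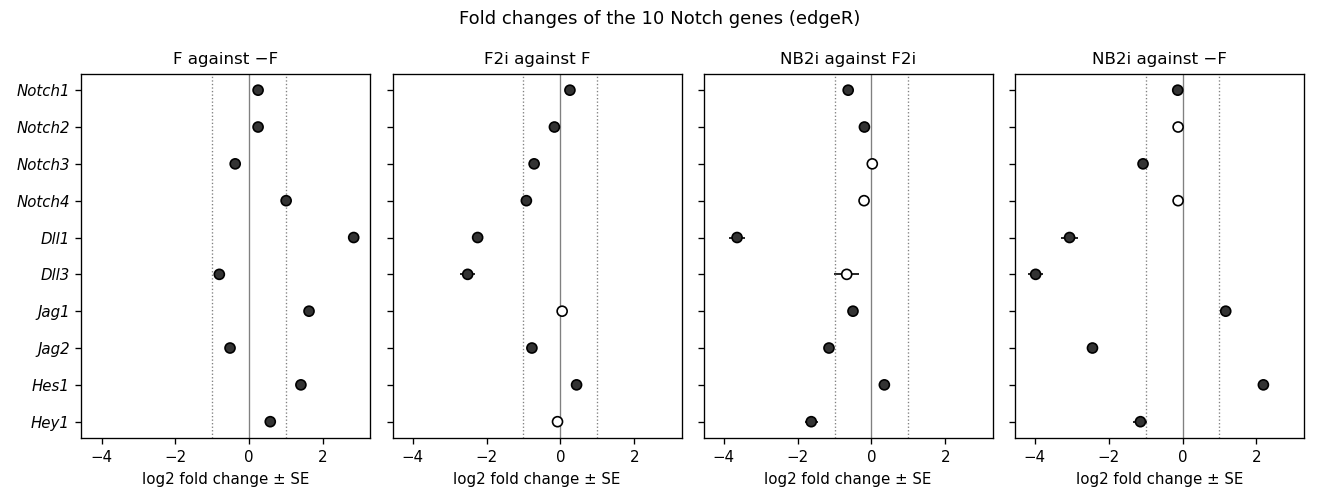
Log2 fold changes (horizontal axis) of the 10 genes in 4 comparisons, as points with bars of ± 1 SE; filled points passed an adjusted p of 0.05, open points did not, and dotted lines mark 2-fold. Dll1 moves from 2.83 in F against −F to -3.64 in NB2i against F2i. The receptors other than Notch3 do not go beyond the dotted lines, with Notch4 at 1.00 in F against −F.

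The make-up of the ligands differed between conditions. Jag2 made 61.2% and 64.2% of the summed FPKM of the 4 ligands in −F, and Jag1 made 10.3% in each. In F, Jag2 (34.5% and 35.0%), Dll1 (30.6% and 30.0%) and Jag1 (25.3% and 25.0%) were nearer to each other. Jag1 led in F2i, with 48.3% and 47.2%, and in NB2i, with 62.0% and 64.2%, while the ligand sum itself was 16.3 and 15.6 FPKM in F2i and 8.18 and 8.76 in NB2i. Among receptors, Notch3 led with 58.5% and 60.2% in −F, and Notch1 led in F2i, with 39.0% and 39.5% against 35.8% and 35.1% for Notch3. Shares are descriptions and were not tested.

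**Figure D3:**
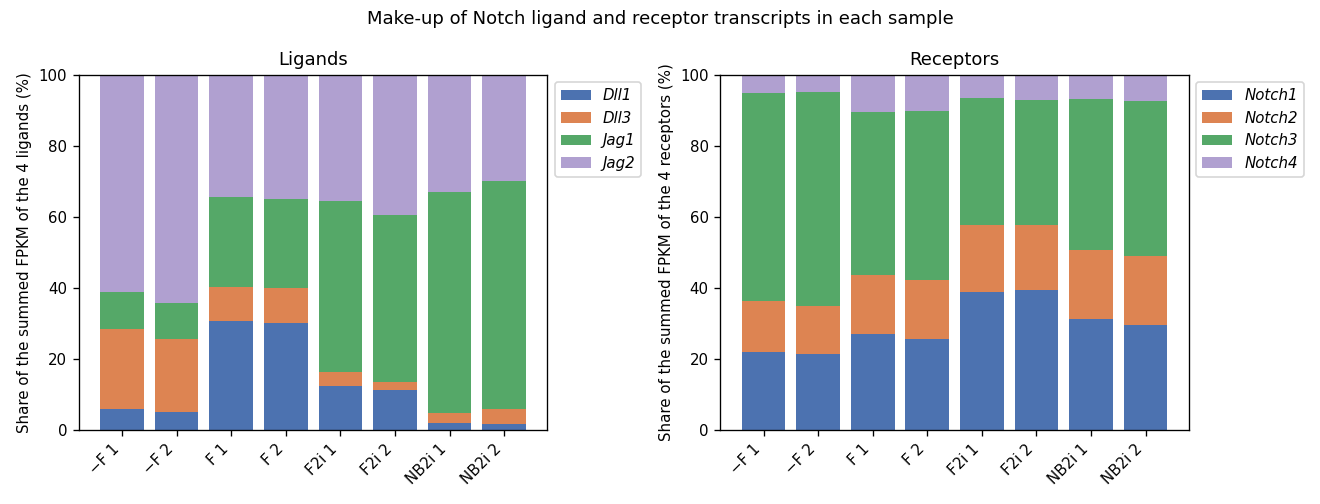
Stacked bars give the share (%) of each ligand (left) and receptor (right) in the summed FPKM of its 4 genes, 1 bar per sample. Jag2 fills 61.2% and 64.2% of the ligand bar in −F, and Jag1 62.0% and 64.2% in NB2i.

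Across the 4 conditions, Hes1 was the one gene of the 10 with the order NB2i, F2i, F, −F from high to low, and each neighbor in this order differed (adjusted p from 3.4e-13 to 8e-06). Jag2 had the reverse order, again with each neighbor different (adjusted p from 1.2e-10 to 7.3e-07). Dll3 followed the order of Jag2, but F2i and NB2i did not differ beyond their spread. Dll1, Notch4, Notch2 and Hey1 were highest in F and lowest in NB2i. For Notch4 and Notch2, F2i, −F and NB2i did not differ beyond their spread between neighbors. Notch2 did differ between the outer 2 of these, F2i and NB2i (adjusted p = 0.0032). Its step from −F to NB2i lay near the threshold (adjusted p = 0.053). That step passed under some alternatives, among them DESeq2's size factors in edgeR (adjusted p = 0.023) and limma on log2(FPKM + 1) (adjusted p = 0.015).

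Of 61 other pathway genes, 57 could be tested. Between F and −F, 3 of the 57 were at least 2-fold higher and 1 lower, shares near the 5.59% and 1.65% of all genes. The one with at least 1 FPKM was Dlk1, a non-canonical ligand, with 0.47 and 0.69 FPKM in −F and 1.75 in each F sample (log2 1.60 ± 0.17, adjusted p = 1.4e-07). Heyl, a Hey family repressor named here after its values were seen, had 0.01 and 0 FPKM in −F, 0.79 and 0.83 in F, 0.47 and 0.40 in F2i and 0 in both NB2i samples. Dlk1 had a mean of 1.205 FPKM in F2i and 0.015 in NB2i. Dlk1 and Heyl were thus both higher in F and F2i, where fibroblast markers were high, than in −F and NB2i. From F to F2i, however, both fell (Dlk1 log2 -0.50 ± 0.15, adjusted p = 0.0071, and Heyl log2 -0.86 ± 0.22, adjusted p = 0.0025). The fibroblast markers rose between these groups, from sums of 354 and 361 FPKM to 743 and 730. The part of fibroblast RNA in the levels of Dlk1 and Heyl was not tested.

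Between F2i and F, 1 of the 57 pathway genes was at least 2-fold higher and 3 were lower, shares below the 6.44% and 7.00% of all genes. Hes6, a Hes family member known to oppose Hes1, had 47.0 and 43.1 FPKM in −F, 34.3 and 34.4 in F, 6.69 and 7.76 in F2i and 7.65 and 7.89 in NB2i, and fell by 2.21 from F to F2i (SE 0.083, adjusted p = 2e-15). Dtx4, a Deltex ubiquitin ligase, fell by 2.14 (SE 0.13, adjusted p = 9.2e-12). Maml2, a Mastermind coactivator, had 0.20 and 0.31 FPKM in −F, 0.47 and 0.52 in F, 1.43 and 1.44 in F2i and 5.80 and 5.84 in NB2i. It rose by 1.49 ± 0.16 from F to F2i (adjusted p = 6.9e-08) and by 1.84 ± 0.11 from F2i to NB2i (adjusted p = 1.7e-12).

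Between NB2i and F2i, 7 of the 57 pathway genes were at least 2-fold higher and 6 lower, against 6.01% and 13.3% of all genes. Among the lower genes with at least 1 FPKM in F2i, Dlk1 fell most, to 1 and 2 counts in NB2i. Its log2 fold change was -6.06 ± 0.37 (adjusted p = 6e-12). Rbpj, the DNA-binding partner of Notch, had 97.4 and 101 FPKM in −F, 107 and 105 in F, 83.8 and 79.2 in F2i and 38.5 and 38.4 in NB2i, and fell by 1.07 (SE 0.043, adjusted p = 4.5e-15). Psen2, a catalytic subunit of gamma-secretase, had 3.85 and 4.53 FPKM in F2i and 13.8 and 12.9 in NB2i (log2 1.68 ± 0.10, adjusted p = 6.1e-12). A list held 10 genes of gamma-secretase, ADAM proteases and the protease Furin. Of these, 8 passed upward and 0 downward at any fold, against 33.3% and 30.8% of all genes. Furin was among the 8. Dtx1, a Notch target, had 7.71 and 7.84 FPKM in F2i and 18.6 and 17.7 in NB2i (log2 1.23 ± 0.066, adjusted p = 5.8e-13). Aph1c, another gamma-secretase subunit, rose 2.84-fold (adjusted p = 3.3e-07), and Dner, a non-canonical ligand, rose by 1.10 ± 0.13 on the log2 scale (adjusted p = 2.8e-07).

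Hes5, another classic Notch target, was near the floor, with 0.35 and 0.23 FPKM in −F, 0.31 and 0.46 in F, 0.08 and 0.12 in F2i and 0 and 0.04 in NB2i, from at most 12 counts, and was not tested. Dll4, the remaining canonical ligand, had between 0.01 and 0.15 FPKM and was not tested either. Nrarp, a feedback gene, had 4.35 and 4.12 FPKM in −F, 3.02 and 3.46 in F, 2.26 and 2.23 in F2i and 3.50 and 3.52 in NB2i, an order unlike that of Hes1.

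**Figure D4:**
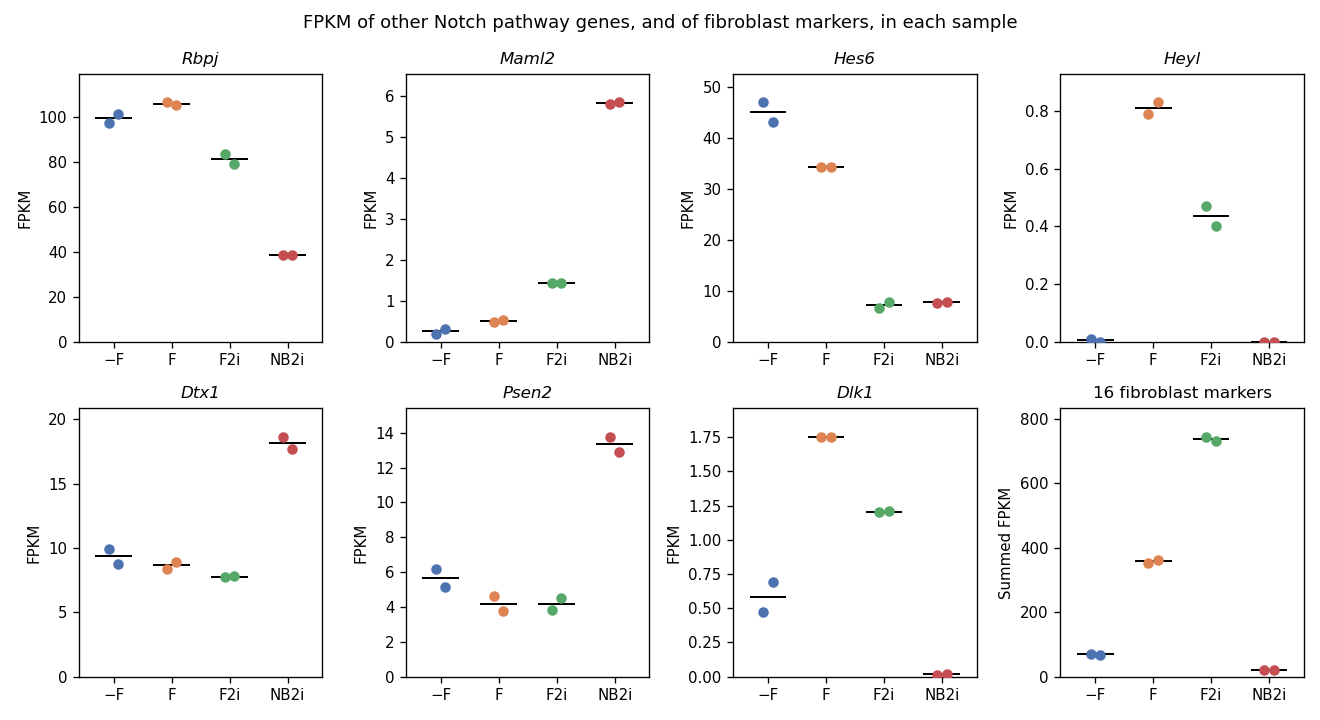
FPKM (vertical axes, from 0) of 7 other pathway genes and the summed FPKM of 16 fibroblast markers in the 2 samples of each condition (points), with the mean as a line. Heyl and Dlk1 are highest in F, while the markers sum highest in F2i, at 743 and 730 FPKM. Rbpj is lowest in NB2i while Maml2, Dtx1 and Psen2 are highest there.

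Genes whose log2(FPKM + 1) followed each of the 10 most closely were sought among 12090 genes over the 8 samples, which fall into only 4 conditions, so that high values of Pearson's r are common. Slc40a1 (r = 0.998), Braf (0.997) and Dnmt3b (0.996) were nearest to Notch3. Esrrb (0.992), Tgoln1 (0.990) and Rnd3 (0.990) were nearest to Hes1, and Emp1 (0.996), Atf3 (0.993) and Rab22a (0.990) to Jag1. Mafk (0.993) and Hmgcs1 (0.992) were among the nearest to Dll1. Dcaf12l1 (0.999), Dppa4 (0.998) and Kif1a (0.998) were nearest to Jag2. For Dll3 they were Ube2e1 (0.999), Pde7a (0.998) and Zfp473 (0.997), and for Notch1 Chka (0.995), Tex19.2 (0.995) and Pla2g4a (0.993). For Notch2, Notch4 and Hey1 the nearest were Crabp1 (0.990), Lyz2 (0.974) and Akr1b8 (0.984).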

How the data were processed

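The authors sequenced poly-A RNA on a BGISEQ-500, used Bowtie2 with the mm10 genome, and estimated gene levels by RSEM. The expected counts deposited by the authors are estimates of reads per gene, of which 29.8% were not whole. The FPKM values deposited by the authors divide them by length and depth, and genes under 0.01 FPKM are left out of a list and were set to 0. Samples were grouped by their labels, in biological duplicates per the labels; whether they were separate cultures is not stated, so that p-values measure the spread between these samples. After rounding, these counts entered edgeR 4.0.16 (R 4.3.3, TMM, quasi-likelihood, all 8 samples, condition as the factor), with Benjamini-Hochberg adjustment per comparison. The filter asked for 10 or more counts in 2 or more samples, which 15287 of 20278 genes met. A call needed an adjusted p under 0.05 and at least 2-fold. With 2 samples against 2, an exact permutation p cannot go below 0.3333. The 10 genes and all lists were chosen with earlier results of these data known. Pathway genes named were the up to 5 each way with the largest fold among those called with at least 1 FPKM in the higher group. Not all of these are printed. Hes5 and Rbpj were to be named in any case. Heyl, Nrarp, Dll4 and Furin were named outside this rule. RefSeq windows were searched for 2 motifs, and for 1 more after these matched none of the 8 genes with a window. Alternatives were DESeq2 1.42.0, its size factors in edgeR, no filter, only the groups compared, a replicate block, limma 3.58.1 on log2 FPKM with a pseudocount of 1 or of 0.1, and each replicate left out. Scripts were tested on simulated data. One gene with a pattern close to that of Dll1 is not reported here.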

Additional observations from a re-analysis of the deposited data

How the results depend on the processing

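Of 180 counts of the 10 genes under the alternatives, 179 stayed within 1.5 times the reported count. With limma on log2(FPKM + 1), 1 gene in place of 2 was at least 2-fold higher in NB2i than in −F. Of 900 fold changes of single genes, 873 kept their direction and their side of an adjusted p of 0.05, 14 no longer passed it, 11 newly passed it and 2 changed sign. These 2 had not passed the test. Hey1 in F2i against F ran from -0.21 to 0.049 over the replicates left out, the latter without F2i replicate 2, and Notch3 in NB2i against F2i was at -0.0001 with only the groups compared. Across all genes, limma on log2(FPKM + 1) called 276 higher and 28 lower in F than in −F, where edgeR called 855 and 252, and DESeq2 called 664 and 115. By construction, a pseudocount of 1 shrinks changes of genes with low FPKM. Same-numbered replicates did not deviate together across genes (r from -0.045 to 0.054 over 6 pairs of groups and 12730 genes). This cannot exclude a pairing that acts on few genes. With the replicate block, 3 of the 10 genes were higher and 0 lower in F than in −F. Each fold change of the 10 genes then kept its direction and its side of an adjusted p of 0.05. Depth limits Dll1 and Dll3 in NB2i, at about 10 to 17 counts.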

Other observations

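Primitive and visceral endoderm markers also differed between the conditions. Their 8 genes summed to 20.5 and 20.8 FPKM in −F, 35.2 and 36.9 in F, 31.5 and 29.8 in F2i and 3.71 and 3.91 in NB2i. Col4a1, a collagen, made most of the sum in −F, F and F2i. Its mean was 15.6 FPKM in −F, 22.9 in F, 25.3 in F2i and 0.655 in NB2i, so the sum mainly follows this gene. In NB2i against −F, 3 of the 8 were at least 2-fold lower (Col4a1, Dab2 and Gata6), against 16.1% of all genes. Sox7 was at least 2-fold higher, against 11.1%, and 4 did not pass. In F against −F, 6 of the 8 were at least 2-fold higher by edgeR's quasi-likelihood test, against 5.59% of all genes. They were Dab2, Gata6, Foxa2, Pdgfra, Sox17 and Sox7. Foxa2 rested on 3 and 0 counts in −F and 10 and 13 in F. Sox17 lay near both thresholds (log2 1.02 ± 0.40, adjusted p = 0.05), with 11 and 8 counts in −F and 15 and 23 in F. In F2i against F, 5 of the 8 were at least 2-fold lower, among them Gata6 and Sox7, against 7.00%. Neural progenitor markers summed to between 5.83 and 11.8 FPKM and endothelial markers to between 3.05 and 6.93. The part of such cells in the levels of the Notch genes was not tested.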
